A study of Mus musculus domesticus with 18 samples.

Results

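The genes described here mark the cells that line and support the vessels of the liver: 34 endothelial, stellate cell and matrix genes among 18193 named genes measured. Members were taken by symbol from a list of markers, and each gene was read from its brightest probe set, by mean level over 18 arrays, among those assigned to 1 gene only. All 34 members were measured. They comprised 11 vascular endothelial genes, 6 sinusoidal endothelial genes, 7 stellate and contractile genes, 8 matrix genes and 2 genes shared by several cell types, Vim and F2r.

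Livers came from 18 wild-caught male house mice (Mus musculus domesticus), 9 from La Paz, Bolivia, at 3600 m and 9 from Lima, Peru, at 100 m. Each altitude was sampled at 3 locations called A, B and C, with 3 mice from each, and each liver was hybridised to Affymetrix mouse arrays. The mice of high location A carry the numbers 1, 2 and 4. The strain field of the labels reads C57BL/6J, which does not match the wild origin given in the titles and the design text, and no allele or treatment separates the groups. Ages are not given in the labels. The letters name different places at each altitude, so altitude, city and mouse population cannot be told apart.

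The liver sinusoid is lined by a fenestrated endothelium without a continuous basement membrane, which takes up waste macromolecules from blood through scavenger receptors such as the stabilins. Stellate cells lie in the space between this endothelium and the hepatocytes, where they store retinoids. When activated they become contractile, express smooth muscle actin and deposit collagen. Portal and central vessels carry a conventional endothelium that stores von Willebrand factor, with smooth muscle around the larger vessels.

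The arrays measure a whole liver, in which fewer cells of a type and less RNA per cell cannot be told apart. Values are the authors' log2 RMA levels, so a difference of 1 is a change of 2-fold, and each level is compared only with the same gene in other mice. Median array levels were 5.30 ± 0.03 in high altitude mice and 5.30 ± 0.03 in low altitude mice (SD, n = 9 each). The mean level of 7 hepatocyte markers ran from 13.07 to 13.44 in high altitude livers and from 13.21 to 13.47 in low altitude livers. Several livers stood apart for vascular and matrix genes. Low B mouse 2 had the highest level of all 18 mice for the matrix genes Col3a1 (10.19), Sparc (11.18) and Timp1 (5.57) and for the contractile genes Acta2 (8.19) and Tagln (7.83), and the lowest for F8 (5.42). High C mouse 3 had 8.14 for Vim, against 9.27 to 9.82 in the other 8 high altitude mice.

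Of the 34 genes, 2 differed between altitudes at an adjusted p under 0.05: F2r was higher and Mylk was lower in high altitude livers. The test was limma's moderated test on all 18193 genes with location as a random block and Benjamini-Hochberg adjustment. It called 66 genes in all, or 0.363% of those tested, with 0.225% higher and 0.137% lower. The correlation estimated within locations was 0.00586, so the block changed little. Without it 66 genes were also called, among them F2r and Mylk. With 1 mean per location limma called 0 genes, and the adjusted p was 0.369 for F2r and 0.405 for Mylk. Since the members were chosen with earlier results of these data known, the count of 2 is a description of the list. Before adjustment, 8 of 34 members had p under 0.05, or 23.5%, against 11.5% of all genes (6.38% higher and 5.1% lower). These were Vwf, Vim, F2r and Acta2 with higher means at high altitude, and Mylk, Hgf, Oit3 and Sparc with lower means. Differences were positive for 16 members and negative for 18, against 51.6% positive over all genes. No member had all 9 high altitude mice apart from all 9 low altitude mice, which occurred for 0.115% of all genes. The 3 location means of one altitude lay beyond those of the other for 6 members (17.6%), namely Vwf, Pecam1, Acta2, Mylk, Vim and F2r, against 14.6% of all genes.

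**Figure D1:**
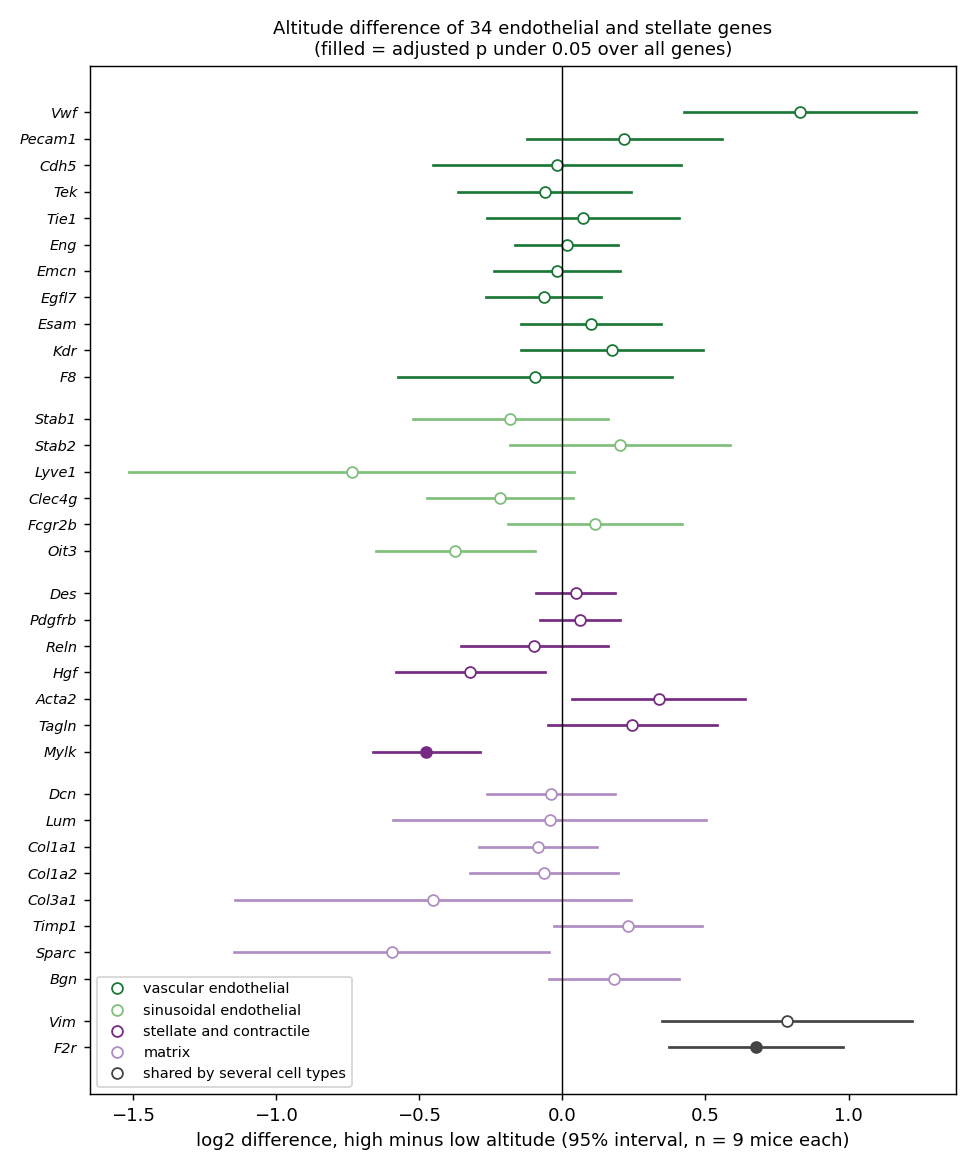
Altitude difference of each of the 34 genes, high minus low, in log2 units, grouped by class, with points for the fitted difference and lines for its 95% confidence interval. Filled points mark F2r and Mylk, the 2 genes with an adjusted p under 0.05, while Vwf and Vim have differences of similar or greater size with wider intervals.

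F2r encodes PAR1, the receptor that thrombin activates on platelets in humans and on endothelial and stellate cells. Its log2 level was 9.49, 9.98 and 10.37 at the lowest, median and highest high altitude mouse, against 8.77, 9.34 and 9.74 in low altitude mice. Each of the 9 high altitude mice exceeded the mean of the low altitude group, and 7 exceeded every low altitude mouse. Levels averaged 9.97 ± 0.31 in high altitude livers and 9.29 ± 0.34 in low altitude livers (SD, n = 9 each), a difference of 0.68 ± 0.15 (SE), or 1.60-fold, with an adjusted p of 0.0437 in limma. Location means were 10.18, 9.67 and 10.04 at high A, B and C, and 9.13, 9.52 and 9.22 at low A, B and C. F2r was placed 63 of the 66 genes called, and the call held in 3 of the 18 fits that each left out 1 mouse, those without high B mouse 2, high B mouse 3 or low A mouse 1. It was lost without low B mouse 2, where the difference was 0.70 with an adjusted p of 0.0512. The other F2r probe set differed by 0.63 with an adjusted p of 0.035 over all probe sets. Both carry the Affymetrix suffix for probes that several transcripts share, as do the probe sets used for Acta2 and Fcgr2b.

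Mylk encodes myosin light chain kinase, which starts contraction in smooth muscle and opens junctions between endothelial cells. Its level was 8.36, 8.60 and 8.85 at the lowest, median and highest high altitude mouse, against 8.69, 9.01 and 9.35 in low altitude mice. Each of the 9 high altitude mice fell short of the mean of the low altitude group, and 8 were under every low altitude mouse. Means were 8.57 ± 0.15 in high altitude livers and 9.04 ± 0.21 in low altitude livers (SD, n = 9 each), a difference of -0.47 ± 0.09 (SE), which is 1.39-fold lower, with an adjusted p of 0.0269 in limma. Location means were 8.51, 8.69 and 8.50 at high A, B and C, and ran from 8.84 at low C to 9.28 at low A, so the gap was widest against low A. Leaving out low A altogether gave -0.35 with an adjusted p of 0.1. A second probe set differed by -0.57 with an adjusted p of 0.034, and the third, dim, by 0.001. The call was lost without low A mouse 2 (adjusted p 0.0505) or without low B mouse 3 (0.058).

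Vwf encodes von Willebrand factor, the protein that tethers platelets to injured vessel walls. Its level was 5.44, 6.07 and 7.30 at the lowest, median and highest high altitude mouse, against 5.03, 5.34 and 5.76 in low altitude mice. Here too the 9 high altitude mice exceeded the mean of the low altitude group, 6 of them exceeded every low altitude mouse, and their spread was wider. Means were 6.18 ± 0.60 in high altitude livers and 5.35 ± 0.21 in low altitude livers (SD, n = 9 each), a difference of 0.83 ± 0.19 (SE) that did not pass the test (limma, adjusted p = 0.0704). It passed without high A mouse 2 (0.0434) or without high B mouse 3 (0.0393). The gap between the 3' and 5' probe sets of Actb, a measure of RNA integrity, was 1.40 ± 0.32 in high altitude livers and 1.21 ± 0.17 in low altitude livers (SD, n = 9 each), highest in high B mouse 1, which also had the highest Vwf. With that gap as a covariate the Vwf difference was 0.69 with an adjusted p of 0.0984.

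Vim encodes vimentin, an intermediate filament of mesenchymal, endothelial and immune cells. Its level was 8.14, 9.37 and 9.82 at the lowest, median and highest high altitude mouse, against 8.07, 8.50 and 9.69 in low altitude mice. The groups overlapped through 1 mouse on each side: high C mouse 3 at 8.14 and low B mouse 2 at 9.69. Means were 9.36 ± 0.50 in high altitude livers and 8.58 ± 0.45 in low altitude livers (SD, n = 9 each), a difference of 0.79 ± 0.21 (SE) that did not pass (limma, adjusted p = 0.107). Without high C mouse 3 the adjusted p was 0.0155, and without low B mouse 2 the difference was 0.93 with an adjusted p of 0.0296. Its other probe sets differed by 0.65 (adjusted p 0.198) and 0.95 (0.114).

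Vim is also abundant in leukocytes, and several leukocyte marker lists had mostly positive differences. The 3 pan-leukocyte genes were all positive in difference (median 0.61), and their mean level ran from 7.12 to 9.38 in high altitude livers and from 6.44 to 8.29 in low altitude livers. Ptprc, the leukocyte antigen CD45, differed by 0.83 (adjusted p 0.286) and Laptm5 by 0.57 (0.407). All 9 Kupffer cell and macrophage markers were positive, with a median of 0.27, led by Lyz2 at 0.68 (adjusted p 0.143) and Csf1r at 0.56 (0.146). Of 8 T and NK cell markers 6 were positive, with Ccl5 at 1.27 (adjusted p 0.11) and Cd2 at 0.25 (0.147). Of 5 B and plasma cell markers 2 were called higher, the antibody chains Jchain at 2.34 and Ighm at 2.05 (limma, adjusted p = 0.00291 and 0.00763). That list was mixed in sign, as 3 of its means were higher at high altitude and 2 were lower. Its median difference was 0.06, so the 2 calls do not describe the list as a whole. The part of these cells in the Vim and F2r results was not tested.

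**Figure D2:**
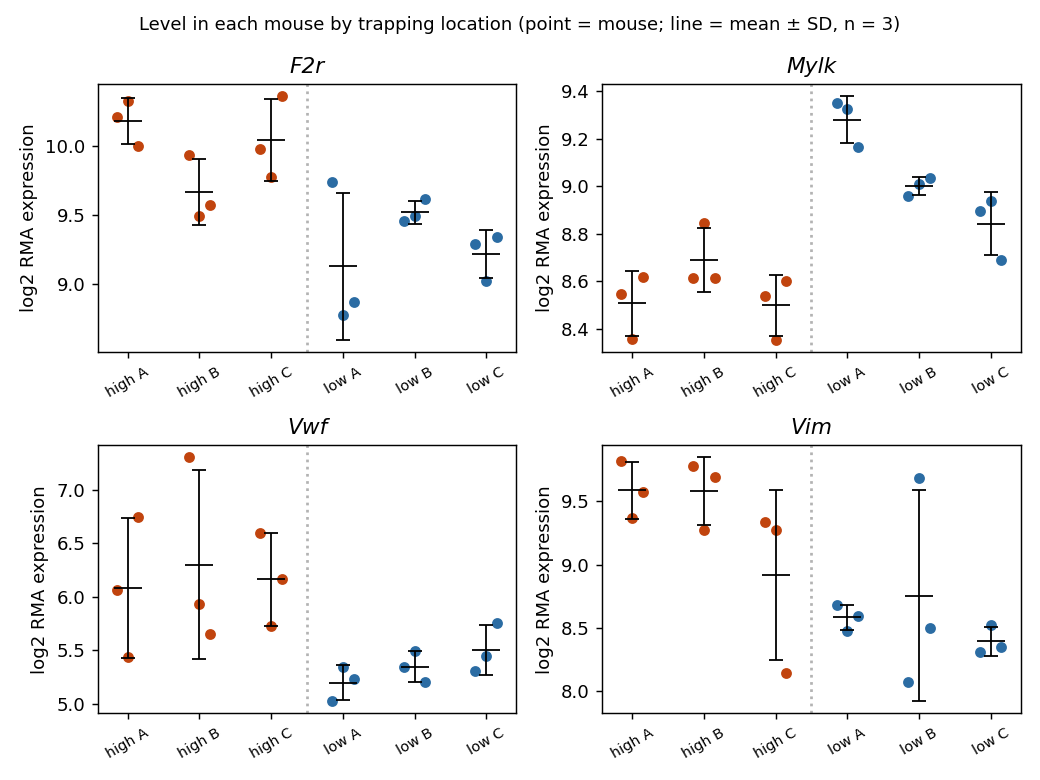
Log2 level of F2r, Mylk, Vwf and Vim in each of the 18 mice by location, high altitude left of low altitude, with a point for each mouse and a line for the mean and SD of 3 mice. F2r sits between 9.49 and 10.37 at high altitude and Mylk between 8.36 and 8.85, while 1 high C mouse and 1 low B mouse fall among the other altitude's Vim values.

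Other vascular endothelial genes showed small differences, and none but Vwf had an unadjusted p under 0.05. The median over the 11 genes was 0.016, against 0.0044 over all genes, with 6 positive and 5 negative. Pecam1, the junction protein CD31, averaged 6.62 ± 0.44 in high altitude livers and 6.40 ± 0.28 in low altitude livers, a difference of 0.22 with a 95% confidence interval of -0.12 to 0.56. Cdh5, the VE-cadherin of adherens junctions, averaged 6.34 ± 0.55 in high altitude livers and 6.36 ± 0.39 in low altitude livers, with high C mouse 2 at 7.69 above 5.81 to 6.46 in the other high altitude mice. The angiopoietin receptor Tek differed by -0.06 (interval -0.36 to 0.24) and its partner receptor Tie1 by 0.07 (-0.26 to 0.41). Kdr, the main VEGF receptor of endothelium, differed by 0.17 (-0.14 to 0.49).

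Some endothelial genes varied little among mice, and their intervals were narrow. Eng, a TGF-beta co-receptor, averaged 8.82 ± 0.17 in high altitude livers and 8.80 ± 0.17 in low altitude livers (SD, n = 9 each), with an interval for the difference of -0.16 to 0.20. The other Eng probe set, also above the median probe set level, differed by -0.03 and had r = 0.20 with the probe set used. Egfl7, a secreted endothelial matrix factor, differed by -0.06 (-0.26 to 0.14) and Emcn, the sialomucin endomucin, by -0.02 (-0.24 to 0.20). The other Egfl7 probe sets differed by 0.08, -0.04 and -0.08, with r of 0.76, 0.50 and 0.27 with the probe set used. Emcn was dim, with a mean level of 5.28. It was among the 6 members below the median gene level of 6.31, with Vwf, Des, Hgf, Col1a1 and Timp1. The junction molecule Esam differed by 0.10 (-0.14 to 0.34). F8, coagulation factor VIII, which liver endothelium makes, averaged 6.94 ± 0.37 in high altitude livers and 7.03 ± 0.65 in low altitude livers, with low B mouse 2 at 5.42 below 6.80 to 7.61 in the other low altitude mice. Its difference was -0.10 (adjusted p 0.934), and -0.30 without that mouse (0.431).

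Sinusoidal endothelial genes had 4 negative and 2 positive differences with a median of -0.20, and none passed the adjusted test. That median was -0.073 without low A and -0.34 without low C. Oit3, a gene of the zona pellucida domain family used as a sinusoidal marker, averaged 7.68 ± 0.32 in high altitude livers and 8.05 ± 0.27 in low altitude livers (SD, n = 9 each), a difference of -0.37 ± 0.13 (SE; limma, adjusted p = 0.241), and 8 of 9 high altitude mice were under the mean of low altitude mice. Lyve1, a hyaluronan receptor, had a larger difference of -0.73 ± 0.37 (SE), with levels of 5.94, 7.92 and 8.67 at the lowest, median and highest high altitude mouse and 7.23, 8.24 and 9.57 in low altitude mice (adjusted p 0.47). Its location means were 7.09, 8.16 and 7.63 at high A, B and C, and 9.17, 8.13 and 7.79 at low A, B and C, with low A standing highest. Its other probe set differed by -0.47.

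The scavenger receptors had differences of either sign. Stab1 differed by -0.18 (interval -0.52 to 0.16) and Stab2, which clears hyaluronan from blood, by 0.20 (-0.18 to 0.59). The lectin Clec4g averaged 10.26 ± 0.29 in high altitude livers and 10.48 ± 0.25 in low altitude livers, a difference of -0.22 (-0.47 to 0.04). Fcgr2b, the inhibitory Fc receptor that removes immune complexes in the sinusoid, averaged 10.01 ± 0.36 in high altitude livers and 9.89 ± 0.28 in low altitude livers.

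Stellate and contractile genes divided by direction. Acta2, the smooth muscle actin of activated stellate cells and vessel walls, was 7.28, 7.81 and 8.16 at the lowest, median and highest high altitude mouse, against 6.91, 7.36 and 8.19 in low altitude mice. Its difference was 0.34 ± 0.15 (SE; limma, adjusted p = 0.364), with 8 of 9 high altitude mice over the mean of low altitude mice, and 0.43 without low B mouse 2 (adjusted p 0.13). Tagln, an actin-binding protein of contractile cells, differed by 0.25 (adjusted p 0.545), and by 0.36 without that mouse (0.14). Thus Acta2 and Tagln had positive differences where Mylk, the kinase of the same contractile apparatus, was lower.

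Hgf, the hepatocyte growth factor made by stellate cells, averaged 6.00 ± 0.33 in high altitude livers and 6.32 ± 0.22 in low altitude livers (SD, n = 9 each), a difference of -0.32 ± 0.13 (SE; limma, adjusted p = 0.292). It was -0.18 with RNA integrity as a covariate (adjusted p 0.529). The other Hgf probe sets, both dimmer, differed by -0.07 and 0.11 (limma, adjusted p = 0.902 and 0.716). High A mouse 1 had 6.77, above 5.71 to 6.14 in the other 8 high altitude mice, all of which were under the mean of low altitude mice. The resident stellate cell markers had small differences: the muscle-type filament desmin (Des) differed by 0.05 (interval -0.09 to 0.19), the PDGF receptor Pdgfrb by 0.06 (-0.08 to 0.20) and the secreted glycoprotein reelin (Reln) by -0.10 (-0.35 to 0.16). The other Pdgfrb probe set, also above the median probe set level, differed by 0.23 (limma, adjusted p = 0.604). It had r = 0.08 with the probe set used.

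Matrix genes had 6 negative and 2 positive differences with a median of -0.054, and none passed the adjusted test. Sparc, a collagen-binding glycoprotein, was 8.86, 9.27 and 9.92 at the lowest, median and highest high altitude mouse, against 8.69, 10.04 and 11.18 in low altitude mice, a difference of -0.60 ± 0.26 (SE; limma, adjusted p = 0.386). Without low B mouse 2 it was -0.43 (adjusted p 0.477), and 1 of its other probe sets differed by -0.61 and another by 0.08. Col3a1, a fibrillar collagen chain of the reticular network, differed by -0.45 ± 0.33, and by -0.22 without that mouse (adjusted p 0.821), so the size of the difference rested on it.

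The main fibrillar collagen chains Col1a1 and Col1a2 differed by -0.09 (interval -0.29 to 0.12) and -0.06 (-0.32 to 0.19). Decorin (Dcn), a small proteoglycan that binds collagen, averaged 11.40 ± 0.28 in high altitude livers and 11.44 ± 0.18 in low altitude livers. Biglycan (Bgn), its relative, averaged 9.43 ± 0.30 in high altitude livers and 9.25 ± 0.14 in low altitude livers, and its other probe sets differed by 0.14 and 0.13. Timp1, an inhibitor of matrix proteases that is raised in fibrosis, averaged 5.03 ± 0.25 in high altitude livers and 4.80 ± 0.30 in low altitude livers (difference 0.23, adjusted p 0.51), and differed by 0.33 without low B mouse 2 (0.13).

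Set against each other, the 17 endothelial genes had 8 positive and 9 negative differences with a median of -0.019, and the 15 stellate and matrix genes had 6 positive and 9 negative with a median of -0.044. An unadjusted p under 0.05 was found for 2 of the 17 (11.8%) and 4 of the 15 (26.7%), against 11.5% of all genes. Both medians lay close to 0 and changed sign when single mice were left out, running from -0.063 to 0.037 for the endothelial genes and from -0.10 to 0.012 for the stellate and matrix genes. With RNA integrity as a covariate they were 0.010 and 0.032. The difference between them was not tested.

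**Figure D3:**
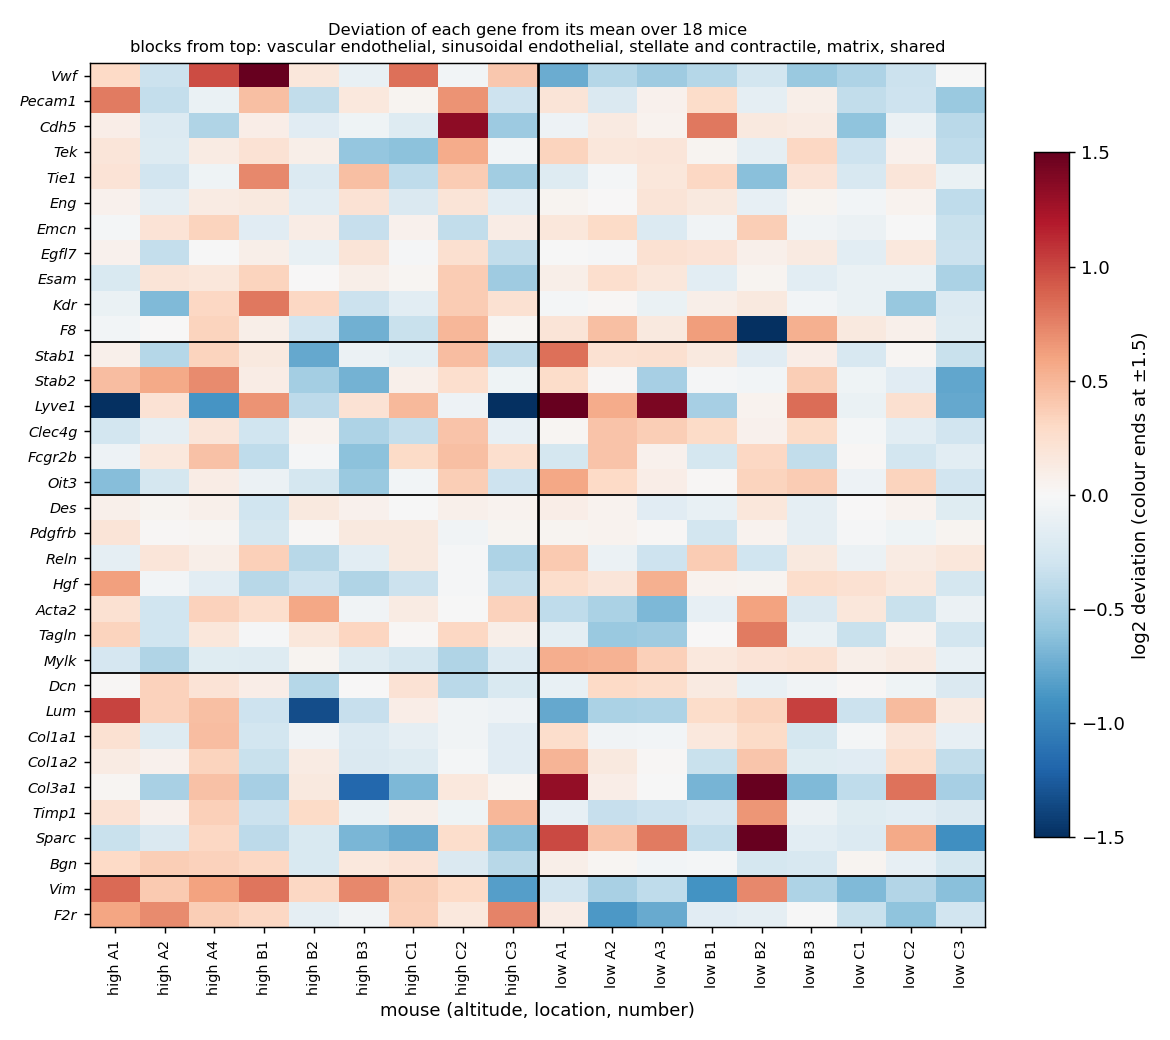
Level of each of the 34 genes in each of the 18 mice as a log2 deviation from the mean of that gene over all mice, with genes grouped by class in rows and high altitude mice left of low altitude mice. Low B mouse 2 shows raised Sparc, Col3a1, Acta2, Tagln and Vim and a low F8.

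Among locations of one altitude, no member differed at an adjusted p under 0.05 in limma's moderated F test over 3 locations, where 55 genes (0.302%) did so at high altitude and 13 (0.0715%) at low altitude. Before adjustment 5 of 34 members had p under 0.05 at high altitude, against 8.91% of all genes, and 3 of 34 at low altitude, against 6.68%. Lum, the collagen-binding proteoglycan lumican, was in both sets. Location means were 8.05, 6.79 and 7.44 at high A, B and C (limma F test, adjusted p = 0.12) and 6.88, 7.99 and 7.54 at low A, B and C (adjusted p = 0.392). These spans are wide beside its altitude difference of -0.04 (interval -0.59 to 0.50).

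Stab2 averaged 8.89, 7.94 and 8.40 at high A, B and C (limma, adjusted p = 0.206), and Fcgr2b 10.12, 9.61 and 10.28 (adjusted p = 0.381). Hgf was 6.30, 5.76 and 5.93 at these locations and Bgn 9.68, 9.42 and 9.20, with adjusted p of 0.474 and 0.493. At low altitude Mylk (limma, adjusted p = 0.507) and Tagln (adjusted p = 0.65) were the other genes under 0.05 before adjustment. Tagln averaged 6.64, 7.28 and 6.87 at low A, B and C.

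Averaging the deviations of the genes in a class in each mouse gave a view of the class by location. The matrix class stood at 0.20 ± 0.16 at high A, -0.25 ± 0.06 at high B and -0.11 ± 0.05 at high C (SD, n = 3 each), so every high A mouse lay above every high B and high C mouse. At low altitude it was 0.10 ± 0.15 at A, 0.13 ± 0.42 at B and -0.07 ± 0.28 at C, the spread at B coming from mouse 2 at 0.62. The sinusoidal class stood at 0.37 ± 0.12 at low A, 0.10 ± 0.16 at low B and -0.17 ± 0.23 at low C, and between -0.22 and 0.003 at the high locations. The vascular class was lowest at low C (-0.20 ± 0.11), and the stellate and contractile class kept within -0.04 and 0.08 at all 6 locations. That class average joined members that moved in opposite directions. At low A, Mylk had its highest location mean (9.28), while Acta2 (7.07) and Tagln (6.64) had their lowest. The class averages have no test.

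**Figure D4:**
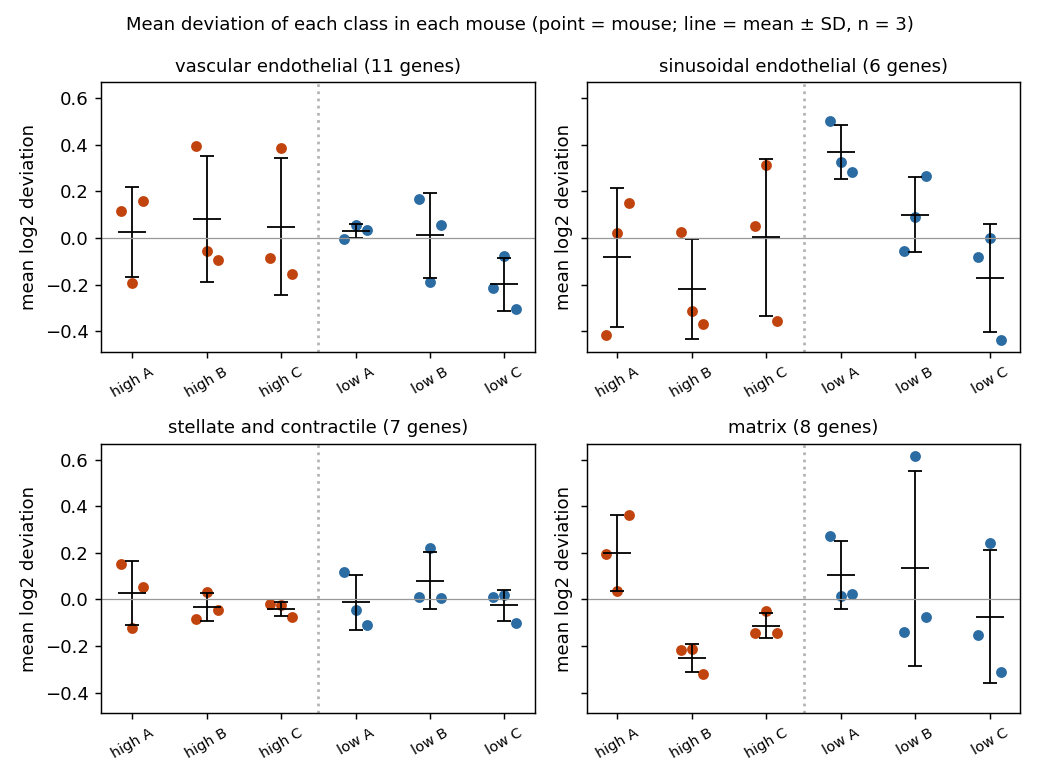
Mean log2 deviation of the genes of each of 4 classes in each mouse, by location, with a point for each mouse and lines for the mean and SD of 3 mice. Matrix genes are higher in all 3 high A mice than in the high B and high C mice, and low B mouse 2 stands at 0.62.

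Genes of one cell type or fibre were set against each other across mice in 13 pairs. Col1a1 and Col1a2, the chains of one collagen, had r = 0.71 over 18 mice (permutation p = 0.001, adjusted p = 0.00503) and rho = 0.69 (permutation p = 0.00217, adjusted p = 0.00985), with r = 0.85 within high altitude, 0.66 within low altitude and 0.61 without the 2 mice farthest from the median of Col1a1. Col1a1 and Col3a1 had r = 0.69 (permutation p = 0.00161, adjusted p = 0.00523) and rho = 0.68 (p = 0.00249, adjusted p = 0.00985), with 0.68 and 0.77 within the altitudes and 0.66 without the 2 farthest mice. Pecam1 and Cdh5, both of endothelial junctions, had r = 0.68 (permutation p = 0.00222, adjusted p = 0.00577) and rho = 0.67 (p = 0.00327, adjusted p = 0.00985), with 0.70 within high altitude, 0.74 within low altitude and 0.61 without the 2 farthest. In these 3 pairs r was 0.66 or more within each altitude, and 0.67 or more for deviations from location means.

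Acta2 and Tagln had r = 0.71 over 18 mice (permutation p = 0.00092, adjusted p = 0.00503) and rho = 0.68 (p = 0.00266, adjusted p = 0.00985), but 0.34 within high altitude (exact permutation p = 0.371) and 0.77 within low altitude (exact p = 0.0232). Leaving out the 2 mice farthest on Acta2, low A mouse 3 and low B mouse 2, gave 0.53. For deviations from location means r was 0.50 for this pair and 0.46 for Vim and Ptprc. The permutations over 18 mice ignored altitude and location, so their p-values also hold differences between those groups. Vim levels fell mostly into a cluster for each altitude, so r over 18 mice also holds the altitude difference. It was 0.70 for Vim and Ptprc, 0.40 for Vim and Lyz2 and 0.54 for Vwf and Vim (permutation, adjusted p = 0.00503, 0.152 and 0.0454). By rho these were 0.66, 0.23 and 0.46 (permutation, adjusted p = 0.00985, 0.42 and 0.0902). The relations within altitudes leave out that difference. Vim and Ptprc had r = 0.64 within high altitude (exact permutation p = 0.0602) and 0.47 within low altitude (exact p = 0.209), and Vim and Lyz2 -0.21 and 0.14. Vwf and Vim had 0.18 and 0.07, so their shared altitude difference was not matched by a relation among the mice of an altitude.

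Vwf was set against Pecam1, a general endothelial gene, and Selp. Vwf and Selp both lay below the median gene level of 6.31. Vwf and Pecam1 had r = 0.21 over 18 mice (permutation p = 0.409, adjusted p = 0.409) and rho = 0.06 (adjusted p = 0.805), and r = -0.74 within low altitude (exact permutation p = 0.0171) beside 0.16 within high altitude. Vwf and Selp, which encodes the P-selectin stored with it in endothelial granules, had r = 0.23 and rho = 0.34 (permutation, adjusted p = 0.391 and 0.219), with r = -0.20 within high altitude, 0.37 within low altitude and 0.58 without the 2 mice farthest on Vwf, high B mouse 1 and high A mouse 4. Stab1 with Stab2 (r = 0.39, rho = 0.42), Tek with Tie1 (0.35, 0.46) and Dcn with Lum (0.23, 0.09) did not pass by either measure, and Des with Tagln passed by rho (0.60, permutation, adjusted p = 0.0205) but not by r (0.48, adjusted p = 0.0809).

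**Figure D5:**
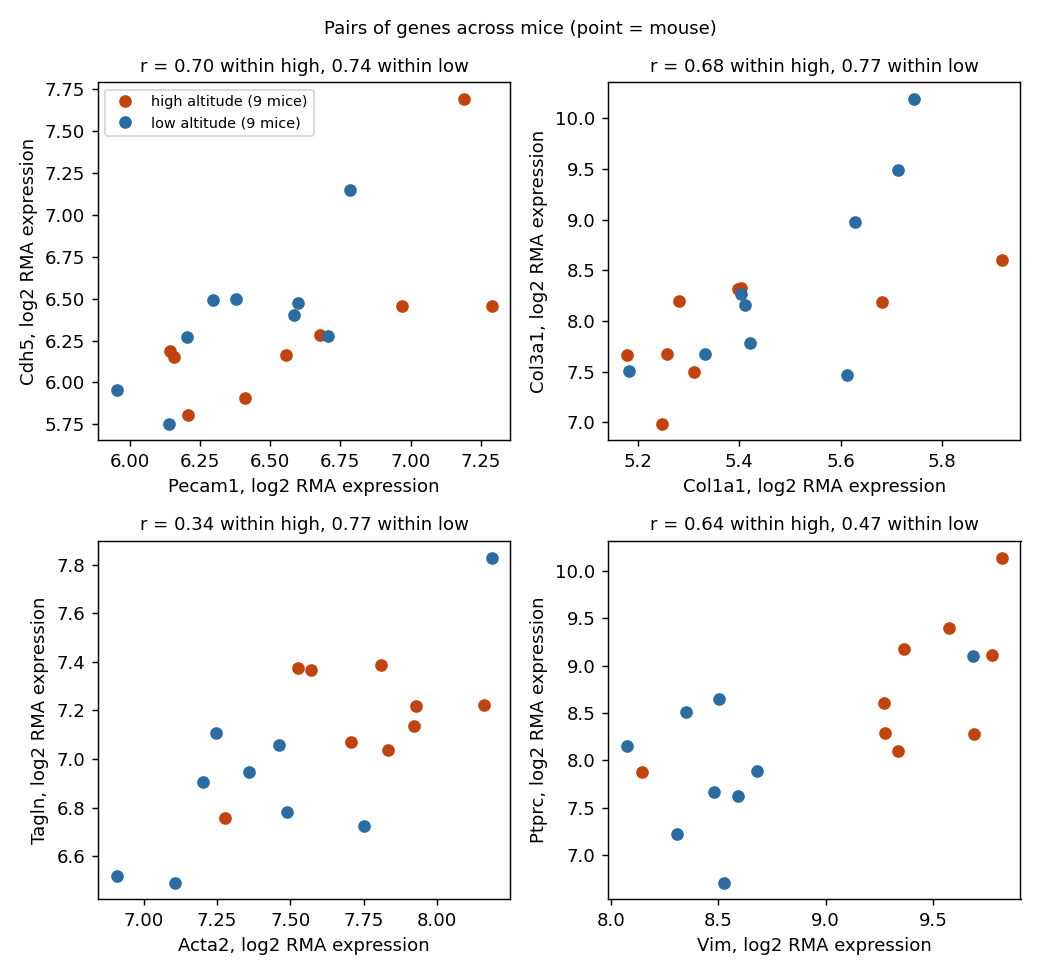
Log2 levels of 4 gene pairs in the 18 mice, one point for each mouse coloured by altitude, with Pearson's r within each altitude above each panel. Pecam1 and Cdh5 track each other at both altitudes (0.70 and 0.74), as do Col1a1 and Col3a1 (0.68 and 0.77).

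Of 92 measured genes of the wider vascular and matrix pathways, 1 passed the test, against 0.363% of all genes. Among 30 vascular signalling genes 21 differences were positive, against 51.6% over all genes, with a median of 0.08. Before adjustment 4 of the 30 (13.3%) had p under 0.05, against 11.5% of all genes. The gene called was Notch1, a receptor that guides arterial and sinusoidal endothelial identity. Its level averaged 7.46 ± 0.17 in high altitude livers and 6.99 ± 0.17 in low altitude livers (SD, n = 9 each). The difference was 0.47 ± 0.08 (SE) with an adjusted p of 0.0159 in limma, and all 9 high altitude mice were over the mean of low altitude mice. Ephb4, a receptor typical of veins, differed by -0.46 (adjusted p 0.0837). Of 8 genes for the storage and platelet partners of von Willebrand factor 5 were positive and none was called, with Angpt2 at 0.14 (adjusted p 0.34) and Selp at 0.24 (0.489). Of 5 platelet and megakaryocyte markers 4 were positive with a median of 0.08, and 2 of the 5 lay above that level.

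None of 9 further sinusoidal genes was called (median -0.05; Bmp2, which controls iron through hepcidin, -0.32, adjusted p 0.315, and Wnt9b 0.12, 0.543). None of 11 further stellate genes was called (median 0.17; Thy1 0.44, adjusted p 0.251, and Ngfr -0.18, 0.323). None of 34 TGF-beta and matrix genes was called in limma, and the median was 0.03. An unadjusted p under 0.05 was found for 4 of them (11.8%, against 11.5% of all genes). All 4 were higher, and 6.38% of all genes were higher with an unadjusted p under 0.05. Of that list Tgfbr2, the TGF-beta receptor subunit that binds ligand, differed by 0.71 (adjusted p 0.15) and Mmp14, a membrane-bound matrix protease, by 0.31 (0.174). Before adjustment 1 of the 9 sinusoidal genes (11.1%) and 3 of the 11 stellate genes (27.3%) had p under 0.05, against 11.5% of all genes.

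Markers of the remaining cell types had small median differences. Median differences were 0.01 for 7 hepatocyte genes, 0.01 for 4 cholangiocyte genes and 0.04 for 3 mesothelial genes. They were -0.03 for 3 erythroid genes and 0.11 for 4 neutrophil genes. None of these genes was called by limma, and 1 neutrophil gene and none of the others had an unadjusted p under 0.05. All 7 hepatocyte genes lay above the median gene level, but only 2 neutrophil genes and 1 cholangiocyte, 1 mesothelial and 1 erythroid gene did. The erythroid median was that of Hba-a1, which was dim (3.76 in high altitude livers and 3.79 in low altitude livers). Small medians of such dim lists say little about those cells.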

How the data were processed

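Liver RNA of 18 mice was measured on 1 set of arrays per mouse. The deposited values are log2 levels for 45101 probe sets, made by the authors with RMA in affy, per the submitters' processing notes; the sources used here do not give versions. RMA quantile-normalises the arrays, so levels are relative to each array's distribution. The number of mice limits the precision. Nothing in the labels says how mice of a location were related, and p-values measure the spread between these mice.

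Genes were named from GEO's platform annotation, with Entrez IDs set against the RefSeq table (GRCm38.p6). Of the probe sets, 34945 carried 1 gene and 932 several, and 64 were Affymetrix controls; 34741 of the single-gene probe sets had an ID in the RefSeq table and 0 symbols changed. Where several single-gene probe sets named a gene, the brightest by mean level was kept, which gave 18193 genes, with no filter on low values. Of the members, 20 had other probe sets.

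Altitudes were compared in limma 3.58.1 (R 4.3.3) with a random block for location (duplicateCorrelation, estimated correlation 0.00586) and an intensity trend, with Benjamini-Hochberg adjustment at 0.05 over all genes. Locations within an altitude were compared with moderated F tests. Correlations used 100000 permutations, exact within altitudes. The procedure was tested on simulated data. All members are named, and from other lists only genes called or among the 2 smallest p-values. The members and lists were chosen with earlier results of these data known. Alternatives covered centring, renormalisation, array weights, dim genes, probe set choice, RNA integrity, blocks, and left-out mice and locations. Promoter motifs were not analysed here, and 143 of 155 genes on the other lists were measured.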

Additional observations from a re-analysis of the deposited data

Results flagged for a closer look

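Among 82 groups of 9 mice, made of 68 groups for the member genes and 14 for list totals, 10 held a mouse set apart from the rest by more than Dixon's 95% limit, and chance gives about 1 in 20. Low B mouse 2 accounted for 4 of them: F8 at 5.42 against 6.80 to 7.61 in the other 8 low altitude mice, Tagln at 7.83 against 6.49 to 7.11, Timp1 at 5.57 against 4.56 to 4.83 and Vim at 9.69 against 8.07 to 8.68. High C mouse 3 had a Vim level of 8.14 against 9.27 to 9.82 in the other high altitude mice. High C mouse 2 had a Cdh5 level of 7.69 against 5.81 to 6.46, high B mouse 1 a Des level of 5.66 against 5.95 to 6.10, and high A mouse 1 an Hgf level of 6.77 against 5.71 to 6.14. Low C mouse 2 had a Kdr level of 7.21 against 7.59 to 7.93, and low A mouse 1 a Stab1 level of 8.33 against 7.18 to 7.75.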

How the results depend on the processing

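The 2 calls among the 34 genes depended on the mice and settings used. With arrays centred on their medians, or quantile normalised again, 1 member was called, Mylk. Leaving out 1 mouse gave 0 to 3 members and 19 to 84 genes (66 with all mice). Mylk held its call in 16 of those 18 fits and F2r in 3, with adjusted p for F2r up to 0.105. Leaving out a whole location gave 0 members without high A, low A or low B, 1 without high C (Vim), 1 without low C (Mylk) and 3 without high B (F2r, Mylk and Vwf). It gave 34 genes without high A, 100 without high B, 30 without low B and 34 without low C. With 1 mean per location, 0 genes and 0 members were called by limma (1617 genes and 7 members at an unadjusted p under 0.05). Leaving out a location, the median difference ran from -0.043 to 0.072 for vascular, -0.34 to -0.073 for sinusoidal, 0.019 to 0.074 for stellate and contractile, and -0.18 to -0.0016 for matrix genes. Weighting arrays by quality called 135 genes, and testing every probe set called 101. Between high locations 55 genes became 26 without dim genes, 281 with array weights and 18 with RNA integrity as a covariate, and 28 to 70 without 1 mouse. With array weights 1 member, Stab2, was called there. Between low locations 13 genes became 7, 50 and 6 under those settings, 24 with every probe set, and 4 to 17 without 1 mouse.

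With the mouse number as a replicate block, 28 genes and 0 members were called by limma (1852 genes and 9 members at an unadjusted p under 0.05). Deviations of same-numbered mice had a mean correlation of -0.0142 (11 of 40 pairs over 0.1), beside 0.00648 for other pairs. Same-numbered mice were thus no more alike on average than others. Whether the numbers mark a shared handling step was not tested. Mouse 4 of high A was alone in its block.

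Over 1150 values of the members under alternatives, 1052 kept their direction and their side of the threshold, 32 lost a call, 6 gained one and 60 changed sign, these in 11 genes, none of them called. With the mean of a gene's probe sets the altitude difference was 0.059 for Cdh5, -0.0056 for Eng and 0.015 for Dcn. With the replicate block it was 0.013 for Cdh5 and -0.00081 for Eng. With RNA integrity as a covariate it was 0.022 for Cdh5, 0.0073 for Tek, 0.010 for Emcn, 0.16 for Lum and 0.032 for Col1a2. With array weights it was -0.036 for Tie1, -0.014 for Eng, 0.024 for Emcn and 0.053 for Lum, and with median-centred arrays -0.0086 for Eng. Without high A it was 0.068 for Cdh5 and -0.040 for Stab2. Without high B it was -0.071 for Tie1, -0.014 for Eng, 0.042 for Emcn, 0.034 for F8, 0.0065 for Dcn and 0.27 for Lum. Without high C it was 0.0085 for Emcn, -0.023 for Fcgr2b and 0.021 for Dcn. Without low A it was 0.037 for Tek, 0.019 for Emcn, 0.013 for F8, 0.027 for Dcn and 0.032 for Col1a2. Without low B it was 0.15 for Cdh5, 0.018 for Emcn and 0.22 for Lum, and without low C -0.043 for Eng. Leaving out 1 mouse gave -0.19 to 0.079 for Cdh5, -0.14 to 0.011 for Tek, -0.012 to 0.14 for Tie1, -0.031 to 0.044 for Eng, -0.064 to 0.025 for Emcn, -0.084 to 0.012 for Dcn and -0.17 to 0.12 for Lum. The causes were not tested.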
